A study of Mus musculus with 14 samples.

Results

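Fibroblast growth factors (FGFs) and their receptors were followed through 14 RNA-seq libraries of cells sorted from mouse forelimb buds. The 10 genes were chosen by name among the 24454 genes of the count table: the receptors Fgfr1, Fgfr2, Fgfr3 and Fgfr4, and the ligands Fgf2, Fgf4, Fgf8, Fgf9, Fgf10 and Fgf18. All 10 were found by their Entrez identifiers, and 9 of them passed the filter on low counts (Fgf4 did not). The study sorted 5 populations by FACS to compare early limb bud mesenchymal progenitors (LMPs) with cells on the way to cartilage.

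Every library came from pooled forelimb buds of embryos of both sexes on a mixed Swiss Albino background that carried the Sox9 IRES-EGFP reporter allele, so S9+ and S9- refer to EGFP. All sorted cells were alive (7AAD-) and negative for CD31, Ter119, CD45, EpCam, Gr1 and CD11b, which removes endothelium, blood cells and epithelium. The S9-JAG1+ LMPs were Sox9-EGFP negative, JAG1 positive and SCA-1 negative (3 libraries, E10.5). The S9-Pαhi LMPs were negative for Sox9-EGFP, JAG1 and SCA-1 with high surface PDGFRα (3 libraries, E10.5). The osteo-chondrogenic progenitors (OCPs) were Sox9-EGFP positive with high PDGFRα (3 libraries, E10.5). The chondroblasts were sorted through the same gate as the OCPs but from E11.5 forelimb buds, and the name S9+PαhiCol2a1+ describes their transcript and not a gate (3 libraries). The S9-SCA-1+ cells were SCA-1 positive and negative for Sox9-EGFP and JAG1 (2 libraries, replicates 2 and 3, E10.5). The study describes all Sox9-EGFP negative cells as drawn from PDGFRα positive cells, which the labels of the S9-JAG1+ and S9-SCA-1+ samples do not mention. As the chondroblasts are the only E11.5 population, cell type and stage cannot be told apart in any comparison with them.

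Between 20316583 and 29162751 reads were counted per library, and levels are given as CPM, the reads of a gene per 1000000 reads of its library, on totals scaled by the trimmed mean of M values (TMM). Sox9, Jag1 and Ly6a followed the gates: Sox9 had 9095 to 16677 reads in OCPs and chondroblasts against 208 to 1582 elsewhere, Jag1 was highest in the S9-JAG1+ LMPs (5323 to 9174 reads) and Ly6a, which encodes SCA-1, was highest in the S9-SCA-1+ cells (87 and 96 reads against at most 11). Pdgfra was lowest in the S9-SCA-1+ cells, at 44.8 and 24.01 CPM against 246 to 248 in S9-JAG1+ LMPs and 360 to 950 in the populations gated for high PDGFRα. A list of 10 myogenic markers summed to 2040 and 2097 CPM in the S9-SCA-1+ libraries and to at most 143 CPM in the other 12. The 7 limb mesenchyme markers, which include the gate gene Pdgfra, summed to 416 to 536 CPM in the S9-SCA-1+ cells, below the 1460 to 3432 CPM of the other populations. Replicate 3 of the S9-SCA-1+ cells also held 3997 CPM of red blood cell transcripts against 140 CPM in replicate 2.

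FGFs are secreted proteins that bind receptor tyrosine kinases together with heparan sulfate and activate the RAS/MAPK cascade, which induces its own inhibitors of the Sprouty and DUSP families and transcription factors of the ETV group. In the limb bud, mesenchymal FGF10 signals to the ectoderm, and FGF4, FGF8 and FGF9 from the apical ectodermal ridge (AER) signal back to keep the distal mesenchyme growing. Later in development, FGF18 and FGFR3 act in growing cartilage. Fgfr1, Fgfr2 and Fgfr3 are spliced into IIIb and IIIc forms with different ligand preferences, which counts per gene do not separate. In RefSeq on GRCm38 (mm10) the receptor genes lie at chr8:25518759-25575718 (Fgfr1, plus strand), chr7:130162451-130266808 (Fgfr2, minus), chr5:33721724-33737068 (Fgfr3, plus) and chr13:55152818-55168759 (Fgfr4, plus). The ligand genes lie at chr3:37348477-37410106 (Fgf2, plus), chr7:144861386-144865245 (Fgf4, plus), chr19:45736491-45742941 (Fgf8, minus), chr14:58070671-58112854 (Fgf9, plus), chr13:118714699-118792573 (Fgf10, plus) and chr11:33116970-33147400 (Fgf18, minus).

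Promoters are shown for 5 of the genes whose levels separated a population from all others, in groups of shared highest population, so that the letters can be set beside the levels given further on. Each runs 5′ to 3′ from 250 bases before to 50 bases after the RefSeq start on GRCm38.p6 (mm10), in lower case with 5 short motifs in capitals on either strand: the SOX motif (ACAAT), the GC box (spelled GGGCGG), the ETS motif (CCGGAA), the E-box (spelled CAGCTG) and the TATA box (spelled TATAAA). The first pair belongs to the genes highest in chondroblasts, Fgfr3 (chr5:33721474-33721773, plus strand, the first of its 2 annotated starts) and Fgf18 (chr11:33147351-33147650, minus strand).
Fgfr3: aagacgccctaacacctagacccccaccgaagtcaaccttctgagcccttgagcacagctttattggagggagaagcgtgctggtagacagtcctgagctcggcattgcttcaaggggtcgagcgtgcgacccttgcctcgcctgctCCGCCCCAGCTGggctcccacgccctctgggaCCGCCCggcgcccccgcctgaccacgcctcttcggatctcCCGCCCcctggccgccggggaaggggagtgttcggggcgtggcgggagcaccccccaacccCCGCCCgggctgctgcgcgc
Fgf18: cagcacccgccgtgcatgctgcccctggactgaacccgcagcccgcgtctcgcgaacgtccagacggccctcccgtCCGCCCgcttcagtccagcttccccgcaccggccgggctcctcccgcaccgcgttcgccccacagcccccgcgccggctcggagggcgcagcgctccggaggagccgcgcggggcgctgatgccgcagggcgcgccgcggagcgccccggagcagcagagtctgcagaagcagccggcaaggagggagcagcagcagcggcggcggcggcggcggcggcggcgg

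The next pair belongs to the genes highest in S9-SCA-1+ cells, Fgfr4 (chr13:55152568-55152867, plus strand) and Fgf9 (chr14:58072436-58072735, plus strand). The Fgf9 window lies inside the gene span given above, downstream of its first base.
Fgfr4: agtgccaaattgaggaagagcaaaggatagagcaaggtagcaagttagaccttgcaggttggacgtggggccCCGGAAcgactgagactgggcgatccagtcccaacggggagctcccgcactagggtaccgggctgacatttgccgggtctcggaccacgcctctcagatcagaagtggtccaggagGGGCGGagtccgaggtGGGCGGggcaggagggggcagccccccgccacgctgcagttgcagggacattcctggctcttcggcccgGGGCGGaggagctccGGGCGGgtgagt
Fgf9: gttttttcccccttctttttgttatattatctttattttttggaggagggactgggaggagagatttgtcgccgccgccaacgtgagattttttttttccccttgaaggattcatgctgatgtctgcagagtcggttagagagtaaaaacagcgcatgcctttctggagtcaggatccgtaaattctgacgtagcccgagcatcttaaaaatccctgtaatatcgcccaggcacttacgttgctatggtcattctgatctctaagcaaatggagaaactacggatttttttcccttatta

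The last belongs to Fgf10 (chr13:118714449-118714748, plus strand), which was highest in S9-JAG1+ LMPs.
Fgf10: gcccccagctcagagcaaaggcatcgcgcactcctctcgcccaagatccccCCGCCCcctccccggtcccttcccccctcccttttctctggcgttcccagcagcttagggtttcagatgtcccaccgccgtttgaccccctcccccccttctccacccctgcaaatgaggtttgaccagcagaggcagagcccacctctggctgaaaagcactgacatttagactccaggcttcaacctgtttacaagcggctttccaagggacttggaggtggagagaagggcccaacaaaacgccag

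The table of 32851 such windows held 9 windows for 8 of the 10 genes. The GC box was found in 7 of these 9 and in 35.7% of all windows. The E-box was found in 1 of the 9 (Fgfr3, at 97 bases before the start) and in 16.3% of all windows, the ETS motif in 1 (Fgfr4, 178 bases before the start) and in 14.9%, and the SOX motif in 1 (Fgfr2) and in 31.0%. None of the 9 held the TATA box, which 13.6% of all windows held. The windows of Fgf18 and Fgfr3 had 78.7% and 69.7% G or C, both above the median of 52.7% over all windows. The other pair lay on both sides of that median, with 65.3% for Fgfr4 and 42.7% for Fgf9, which held none of the motifs.

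Differences were tested with edgeR's quasi-likelihood F test on all 14 libraries, with p values adjusted by the Benjamini-Hochberg method over the 15125 genes tested. Genes with an adjusted p up to 0.1 and a log2 fold change of 1.2 or more in either direction were called. These limits follow the study's methods, which give them for P without naming an adjustment. In the joint test of the 5 populations all 9 tested FGF genes were called, against 29.2% of all tested genes. Their ranges between the highest and lowest population had a median of 3.48 on the log2 scale, and those of all tested genes a median of 0.75. Against the mean of the other 4 populations, 6 of the 9 were called in S9-JAG1+ LMPs (10.6% of all tested genes), 3 in S9-Pαhi LMPs (3.84%), 3 in OCPs (5.01%), 5 in chondroblasts (12.7%) and 7 in S9-SCA-1+ cells (11.3%). All 5 genes called in chondroblasts were higher there, all 3 called in S9-Pαhi LMPs were lower, and the other populations had both kinds. Without the chondroblast libraries the counts were 7 of 9 in the joint test (20.3% of all genes tested in that fit), 5 in S9-JAG1+ LMPs (8.46%), 3 in S9-Pαhi LMPs (3.58%), 3 in OCPs (7.50%) and 6 in S9-SCA-1+ cells (10.2%). The genes changed with this fit, since Fgfr2 was then called higher in S9-Pαhi LMPs (1.62, adjusted p = 1.00e-04) and Fgfr3 higher in OCPs, while Fgf8 was called in neither. Without the S9-SCA-1+ libraries they were 8 in the joint test (22.6%), 4 in S9-JAG1+ LMPs (11.6%), 2 in S9-Pαhi LMPs (3.71%), 3 in OCPs (4.19%) and 6 in chondroblasts (11.1%). In that fit Fgfr4 was called higher in OCPs (1.48) and chondroblasts (1.49), Fgf9 higher in chondroblasts (1.40), Fgf2 lower in OCPs (-1.79) and Fgfr3 lower in S9-Pαhi LMPs (-1.31). None of these was called in the main fit of all 14 libraries, where Fgf2 in OCPs was at -1.15 (adjusted p = 0.062). Fgf2 was also called lower in OCPs without their replicate 3 (-1.61, adjusted p = 0.055). Its log2 fold change was -1.25 without replicate 3 of the S9-SCA-1+ cells. Without replicate 3 of the S9-JAG1+ LMPs, which stands apart for several FGF ligands described further on, they were 8 in the joint test (28.6%) and, in the order of populations first given, 6 (9.63%), 3 (3.76%), 2 (4.80%), 5 (12.4%) and 7 (11.2%).

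**Figure D1:**
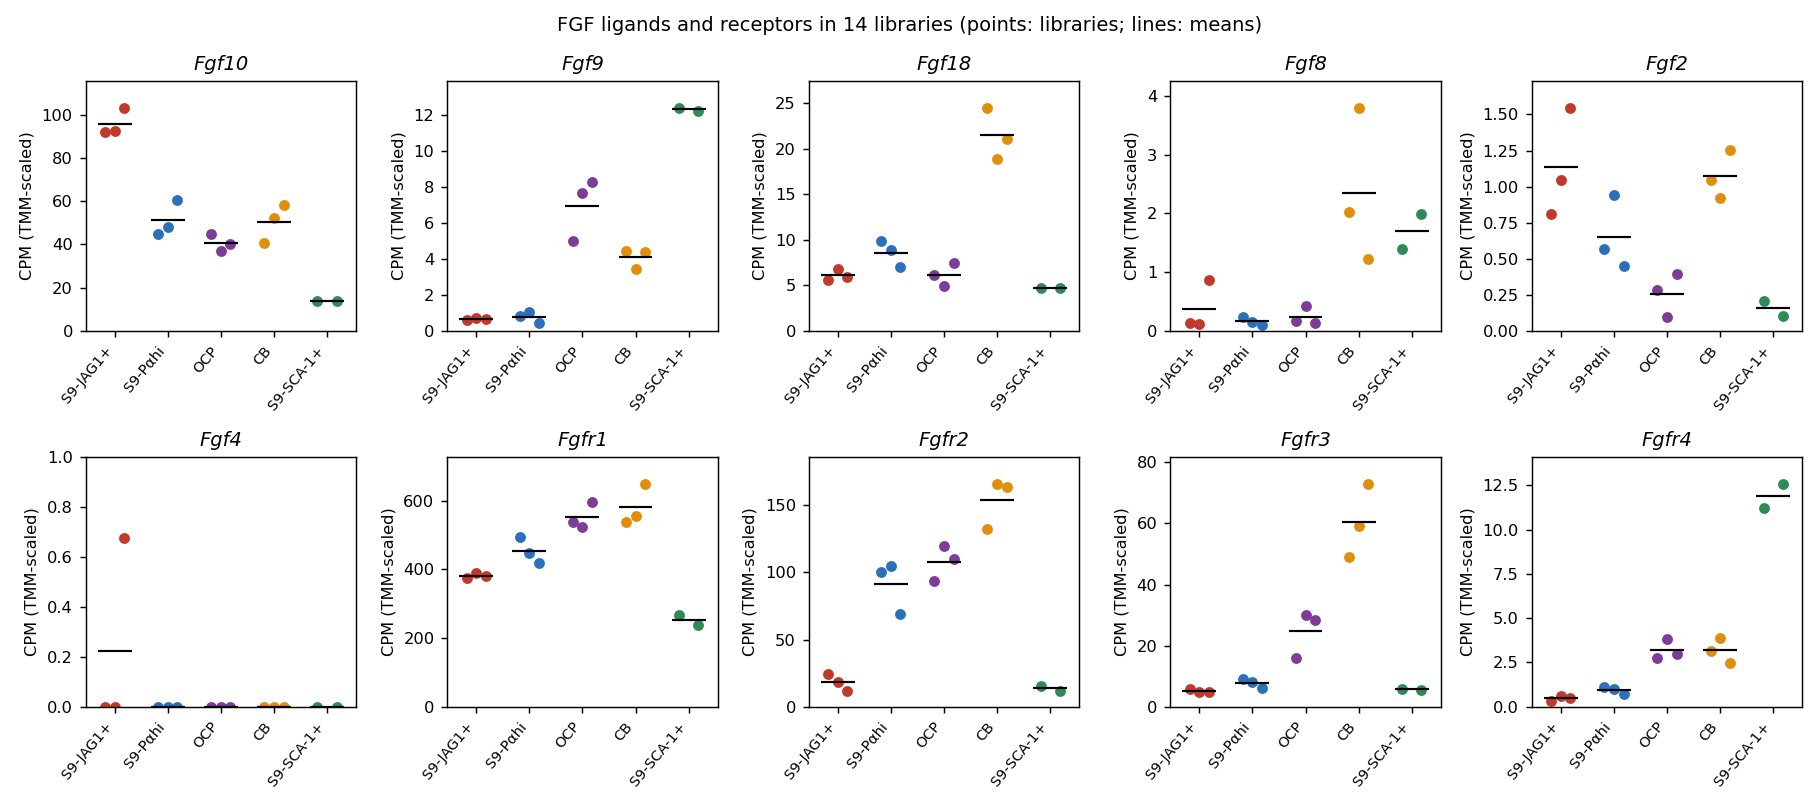
Levels of the 10 FGF genes in CPM on TMM-scaled totals (vertical axes from 0, a scale for each gene) by population, with a point for each library and a line at the mean of the population. Fgf10 is highest in the S9-JAG1+ LMPs, Fgf18, Fgfr2 and Fgfr3 are highest in the chondroblasts (CB), Fgf9 and Fgfr4 in the S9-SCA-1+ cells, and Fgf4 is above 0 in a single library.

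Fgf10, the mesenchymal ligand needed for limb bud outgrowth, had the highest level per kilobase of deposited length in 11 of the 14 libraries. This ranks only the 6 chosen ligands, and the order was not tested with other gene lengths. Its CPM were 92.0, 92.6 and 103 in S9-JAG1+ LMPs, 44.7, 48.2 and 60.4 in S9-Pαhi LMPs, 44.7, 36.9 and 40.2 in OCPs, 40.5, 52.3 and 58.2 in chondroblasts, and 13.9 and 13.8 in S9-SCA-1+ cells. All 3 S9-JAG1+ libraries lay above, and both S9-SCA-1+ libraries below, every other library, while the 3 populations in between overlapped. Against the mean of the others Fgf10 was higher by 1.47 on the log2 scale in S9-JAG1+ LMPs (SE 0.10, adjusted p = 5.93e-08) and fell by 2.02 in S9-SCA-1+ cells (SE 0.15, adjusted p = 1.40e-07), with a 6.92-fold ratio of their means. The first of these calls rested on the S9-SCA-1+ libraries in the mean of the others, and without them the log2 fold change was 1.03 (adjusted p = 6.67e-06). The step from S9-JAG1+ to S9-Pαhi LMPs was 1.88-fold, a log2 difference of -0.91 (adjusted p = 0.000229) that misses the fold limit. S9-Pαhi LMPs and chondroblasts did not differ beyond their spread (log2 difference -0.02, SE 0.13, adjusted p = 0.909), nor did chondroblasts and OCPs (0.31, SE 0.14, adjusted p = 0.107). The call of OCPs against S9-JAG1+ LMPs (log2 fold change -1.24) ended without replicate 3 of the S9-JAG1+ LMPs (-1.19) and, likewise just inside the limit, without replicate 2 of the OCPs. The 10 markers of posterior and distal mesenchyme, which include the gate gene Jag1, moved with Fgf10 at its upper end. Their sums were 2362 to 3195 CPM in S9-JAG1+ LMPs, 964 to 1083 in S9-Pαhi LMPs, 432 to 465 in OCPs, 829 to 1121 in chondroblasts and 266 to 287 in S9-SCA-1+ cells. Their part in the result was not tested. In sorted pools, fewer cells with a transcript and less of it per cell cannot be told apart.

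Fgf18, a ligand of cartilage and its perichondrium, was highest in chondroblasts. Its CPM were 24.5, 18.9 and 21.05 there, 9.84, 8.91 and 7.02 in S9-Pαhi LMPs, 6.17, 4.90 and 7.49 in OCPs, 5.57, 6.79 and 5.95 in S9-JAG1+ LMPs, and 4.72 and 4.70 in S9-SCA-1+ cells. The lowest chondroblast library lay well above every library of E10.5, and the S9-SCA-1+ libraries were the lowest of all. Fgf18 rose by 1.78 on the log2 scale in chondroblasts (SE 0.12, adjusted p = 4.05e-08) and was called in each of the 4 pairs with chondroblasts and in no pair among the E10.5 populations. Against OCPs, the E10.5 population from the same gate, the log2 fold change was 1.79 (SE 0.17, adjusted p = 7.07e-06). Against S9-Pαhi LMPs it was 1.32 (SE 0.17, adjusted p = 3.01e-05), and this call ended without replicate 3 of the S9-Pαhi LMPs or replicate 1 of the chondroblasts, each time just under the limit. Within E10.5, OCPs and S9-JAG1+ LMPs had nearly the same level (log2 difference 0.03, SE 0.17, adjusted p = 0.922). Without the chondroblast libraries Fgf18 was not called in the joint test (range 0.88, adjusted p = 0.0205). Per kilobase Fgf18 led the 6 chosen ligands in the chondroblasts, at 13.6 ± 1.79 CPM per kb against 11.01 ± 1.97 for Fgf10 (SD, n = 3), and it was ahead in 3 of 3 libraries. In S9-SCA-1+ cells Fgf10, Fgf9 and Fgf18 stood at 3.03, 2.98 and 2.97 CPM per kb. Their order depends on the lengths used: the deposited length of Fgf18 was 1585 bases, and its longest GENCODE transcript has 1086. For Fgf10 these were 4572 and 4114 bases.

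Fgf9, a ligand made by the AER and by other embryonic tissues, separated the LMPs from the rest. Its CPM were 12.4 and 12.3 in S9-SCA-1+ cells, 4.99, 7.66 and 8.28 in OCPs, 4.47, 3.46 and 4.40 in chondroblasts, 0.813, 1.05 and 0.448 in S9-Pαhi LMPs, and 0.599, 0.712 and 0.674 in S9-JAG1+ LMPs. No library of either LMP population reached the lowest library of the other 3 populations. The LMP libraries held 9 to 28 reads of Fgf9. The S9-SCA-1+ cells rose by 2.64 (SE 0.18, adjusted p = 5.79e-08) and the OCPs by 1.62 (SE 0.17, adjusted p = 1.39e-05) on the log2 scale, whereas the S9-JAG1+ LMPs fell by 2.62 (SE 0.25, adjusted p = 1.53e-06) and the S9-Pαhi LMPs by 2.30 (SE 0.24, adjusted p = 2.19e-05). OCPs exceeded S9-Pαhi LMPs by 3.14 (SE 0.27, adjusted p = 5.35e-06), the largest fold change of a tested FGF gene between these 2 populations of E10.5 that share high PDGFRα. The S9-JAG1+ and S9-Pαhi LMPs were neighbours with a log2 difference of 0.25 (SE 0.32, adjusted p = 0.637). The OCPs lay above the chondroblasts in every library, by 0.76 on the log2 scale (adjusted p = 0.0211), under the fold limit.

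Fgf8, the main ligand of the AER, was rare in these EpCam-negative cells. It had 60, 111 and 31 reads in chondroblasts (2.02, 3.80 and 1.22 CPM), 40 and 56 in S9-SCA-1+ cells (1.40 and 1.99 CPM), 3, 3 and 22 in S9-JAG1+ LMPs, 6, 4 and 2 in S9-Pαhi LMPs, and 4, 9 and 4 in OCPs. Chondroblasts and S9-SCA-1+ cells overlapped each other and lay above all other libraries. The log2 fold change was 2.54 in chondroblasts (SE 0.43, adjusted p = 0.000171) and 1.95 in S9-SCA-1+ cells (SE 0.50, adjusted p = 0.00687), and between these neighbours it was -0.47 (SE 0.59, adjusted p = 0.516). The S9-SCA-1+ call ended without their replicate 3 (1.67, adjusted p = 0.111). Fgf8 fell by 2.18 in S9-Pαhi LMPs (SE 0.67, adjusted p = 0.0503) and by 1.58 in OCPs (SE 0.63, adjusted p = 0.0922), from counts of at most 9 reads in these 6 libraries. The OCP call ended when any of 9 single libraries was left out, and the S9-Pαhi call when any replicate of that population was left out (adjusted p = 0.110, 0.153 and 0.185). Both ended without the chondroblast libraries (adjusted p = 0.177 and 0.238) and without the S9-SCA-1+ libraries (adjusted p = 0.112 and 0.303). Without replicate 3 of the S9-JAG1+ LMPs, Fgf8 was also called lower in that population, at -2.27 (adjusted p = 0.0186).

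The 18 markers of ectoderm and apical ridge summed to 22.9, 26.0 and 24.9 CPM in chondroblasts, 14.5 to 17.4 in OCPs, 9.81 to 14.9 in S9-JAG1+ LMPs, 8.07 to 11.8 in S9-Pαhi LMPs and 8.87 to 10.6 in S9-SCA-1+ cells, with 6 to 13 of the 18 above 3 reads in a library. Among the chondroblast libraries the highest sum was in replicate 2, which also had the most Fgf8 reads. The other 2 ran the other way, with 60 Fgf8 reads at 22.9 CPM in replicate 1 and 31 at 24.9 CPM in replicate 3. The S9-SCA-1+ libraries had 40 and 56 Fgf8 reads at low marker sums of 10.6 and 8.87 CPM. Of the 18, 11 passed the filter on low counts. Against the mean of the other 4 populations, 6 were called higher and 2 lower in chondroblasts (12.7% of all tested genes). S9-SCA-1+ cells had 3 higher and 3 lower (11.3%), and S9-JAG1+ LMPs 2 higher and 3 lower (10.6%). OCPs had 1 higher (5.01%) and S9-Pαhi LMPs 1 lower (3.84%). The only markers given singly are Cdh1 with 0 to 14 reads, Krt14 with 0 to 21, Krt5 with 0 to 25 and Wnt7a with 0 to 3 over the 14 libraries. The part of these transcripts in the Fgf8 result was not tested.

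Fgf4, another AER ligand, had 17 reads (0.674 CPM) in replicate 3 of the S9-JAG1+ LMPs and 0 in the other 13 libraries, where a count of 0 allows up to 0.101 to 0.149 CPM. The same library held the highest counts of its population for Fgf8 and, chosen after their values were seen, for Fgf3 (28 reads against 0 and 0), Fgf15 (38 against 5 and 3) and Fgf17 (38 against 5 and 17). It also had 601 reads of T against 125 and 247 in replicates 1 and 2, 75 of Msgn1 against 5 and 5, and 141 of Tbx6 against 33 and 21. These are genes of the tail bud and presomitic mesoderm. For T, the study also reports raised expression in S9-JAG1+ LMPs and normal expression in posterior or distal limb bud mesenchyme. The whole list of 8 presomitic and somite markers summed to 86.5 CPM in replicate 3, 46.4 and 77.2 CPM in replicates 1 and 2, and 96.2 to 318 CPM in the other populations. Fgf10 differed little between this library and the other 2 (103 against 92.0 and 92.6 CPM). The part of these transcripts in Fgf4 and Fgf8 was not tested.

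Fgf2, a ligand without a classical signal peptide, had 2 to 39 reads in a library. Its CPM were 0.813, 1.05 and 1.55 in S9-JAG1+ LMPs, 1.04, 0.924 and 1.26 in chondroblasts, 0.569, 0.940 and 0.448 in S9-Pαhi LMPs, 0.284, 0.0951 and 0.398 in OCPs, and 0.210 and 0.107 in S9-SCA-1+ cells. The first 3 populations overlapped each other, and OCPs and S9-SCA-1+ cells overlapped at the low end. It rose by 1.43 in S9-JAG1+ LMPs (SE 0.32, adjusted p = 0.00246) and by 1.33 in chondroblasts (SE 0.32, adjusted p = 0.00256), and fell by 2.07 in S9-SCA-1+ cells (SE 0.51, adjusted p = 0.00554). OCPs were below chondroblasts, with a log2 fold change of chondroblasts against OCPs of 1.98 (SE 0.45, adjusted p = 0.00552). The call in S9-JAG1+ LMPs ended without their replicate 3 (1.15), that in chondroblasts without replicate 3 of the chondroblasts (1.17) or, just below the limit, replicate 2 of the OCPs. Without the S9-SCA-1+ libraries both ended, at 0.98 (adjusted p = 0.0224) and 0.85 (adjusted p = 0.0377). The call of OCPs against S9-Pαhi LMPs (-1.29, adjusted p = 0.0893) ended when any of 10 single libraries was left out. The length deposited with Fgf2 was 695 bases, whereas its longest transcript in GENCODE M21 has 5973, and which part of the transcript these reads cover was not tested. As to overlap, 9.44% of its exon bases overlap those of Nudt6 on the other strand.

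**Figure D2:**
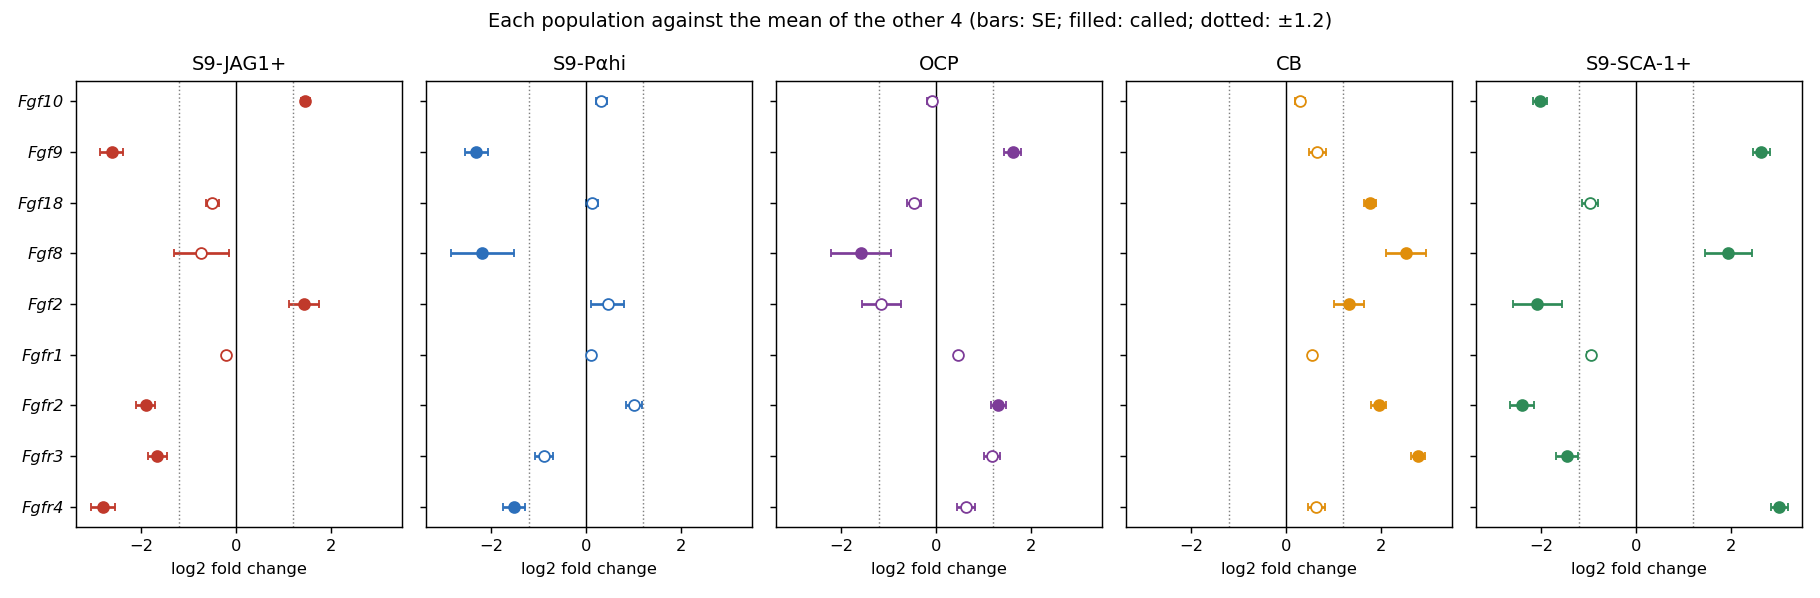
Log2 fold change of each tested FGF gene in each population against the mean of the other 4 (horizontal axis, edgeR), with bars for the standard error, filled points for called genes and dotted lines at the fold limit of 1.2. The 5 filled points of the chondroblasts (CB) all lie to the right, and the 3 of the S9-Pαhi LMPs to the left.

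Fgfr1, the main receptor of limb bud mesenchyme for FGFs of the AER, was the most abundant of the 10 genes in every population. Its CPM were 538, 556 and 650.0 in chondroblasts, 538, 523 and 597 in OCPs, 496, 447 and 419 in S9-Pαhi LMPs, 374, 388 and 380.2 in S9-JAG1+ LMPs, and 267 and 239 in S9-SCA-1+ cells. Chondroblasts and OCPs overlapped, and each next population lay below the one before in all its libraries. The means spanned 2.30-fold, the narrowest range of the tested FGF genes. Chondroblasts and OCPs did not differ beyond their spread (0.07 on the log2 scale, SE 0.09, adjusted p = 0.583). The differences from the mean of the others ran from -0.94 in S9-SCA-1+ cells (SE 0.09, adjusted p = 2.02e-06) to 0.56 in chondroblasts (SE 0.07, adjusted p = 1.22e-05), so none reached the fold limit. Fgfr1 was called in S9-SCA-1+ cells against chondroblasts and, from the same range, in the joint test, with a size equal to the limit (SE 0.11, adjusted p = 5.61e-07 and 1.52e-06). Both calls ended with DESeq2, with median-of-ratios size factors and when any of 6 single libraries was left out, and the log2 fold change between S9-SCA-1+ cells and chondroblasts was -1.08 without replicate 3 of the chondroblasts.

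Fgfr2, which receives FGF10 in epithelium through its IIIb form and acts in skeletal progenitors through IIIc, split the populations into a high and a low group. Its CPM were 132, 166 and 164 in chondroblasts, 93.5, 119 and 110.1 in OCPs, 100.2, 104 and 68.8 in S9-Pαhi LMPs, 24.4, 18.3 and 11.9 in S9-JAG1+ LMPs, and 15.6 and 11.9 in S9-SCA-1+ cells. The lowest library of the high group, at 68.8 CPM, was above the highest of the low group, at 24.4. The step between S9-Pαhi and S9-JAG1+ LMPs was 5.01-fold, with a log2 fold change of 2.33 (SE 0.23, adjusted p = 5.59e-06). Fgfr2 was the only tested FGF gene called between these 2 LMP populations, where 7.00% of all tested genes were called. It fell by 1.89 in S9-JAG1+ LMPs (SE 0.20, adjusted p = 4.33e-06) and by 2.39 in S9-SCA-1+ cells (SE 0.25, adjusted p = 3.61e-06), and rose by 1.96 in chondroblasts (SE 0.16, adjusted p = 1.79e-07) and 1.31 in OCPs (SE 0.16, adjusted p = 4.63e-05). Within the low group the difference was -0.40 (SE 0.26, adjusted p = 0.296) and between OCPs and S9-Pαhi LMPs 0.24 (SE 0.21, adjusted p = 0.481). The OCP call rested on the S9-SCA-1+ libraries in the mean, and without them the log2 fold change was 0.75 (adjusted p = 0.00919).

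Fgfr3, a receptor of proliferating chondrocytes, rose from LMPs to OCPs to chondroblasts. Its CPM were 49.1, 59.1 and 73.1 in chondroblasts, 15.98, 30.1 and 28.3 in OCPs, 9.15, 8.16 and 6.28 in S9-Pαhi LMPs, 5.95 and 5.59 in S9-SCA-1+ cells, and 5.78, 4.78 and 4.80 in S9-JAG1+ LMPs. Chondroblasts, OCPs and S9-Pαhi LMPs formed 3 levels without overlap, above overlapping S9-SCA-1+ cells and S9-JAG1+ LMPs (log2 difference 0.17, SE 0.26, adjusted p = 0.691). The rise was 2.79 in chondroblasts against the mean of the others (SE 0.15, adjusted p = 5.15e-09). Chondroblasts exceeded OCPs by 1.28 (SE 0.21, adjusted p = 0.00056), and this call ended without replicate 1 of the OCPs (1.05) or replicate 3 of the chondroblasts (1.10). OCPs exceeded S9-Pαhi LMPs by 1.65 (SE 0.22, adjusted p = 0.000231) and S9-JAG1+ LMPs by 2.28 (SE 0.23, adjusted p = 3.46e-06). Fgfr3 fell by 1.66 in S9-JAG1+ LMPs (SE 0.20, adjusted p = 1.64e-05) and by 1.44 in S9-SCA-1+ cells (SE 0.23, adjusted p = 0.000209) against the mean of the others. Both calls ended without the chondroblast libraries, at -1.03 (adjusted p = 0.0024) and -0.80 (adjusted p = 0.0212), while the OCPs were then called at 2.01 (adjusted p = 5.42e-06). The 10 chondroblast markers followed this order in sum, with 1456, 2064 and 1907 CPM in the 3 OCP libraries, 2275, 2782 and 3431 CPM in chondroblasts and 180 to 280 CPM elsewhere. Of the 9 tested, 4 were called higher in chondroblasts than in OCPs and none lower (7.77% of all tested genes). In S9-SCA-1+ cells against S9-JAG1+ LMPs, 1 was higher and 5 were lower (11.4%). Within OCPs and within chondroblasts the library with the lowest sum was lowest in Fgfr3. The list holds Sox9, whose reporter set the gate, and Col2a1, after which the chondroblasts are named, so part of this separation follows from the sort. The 6 markers of neural crest and Schwann precursors were also highest in sum in chondroblasts and OCPs, which overlapped. Their sums were 9.61, 21.4 and 14.9 CPM in OCPs, 21.1, 24.3 and 29.2 in chondroblasts, 3.90 to 6.43 in both LMP populations and 7.84 and 8.01 in S9-SCA-1+ cells. Of the 5 tested, 2 were called higher in chondroblasts than in OCPs and none lower (7.77% of all tested genes). Their median log2 fold change was -0.06. The part of either list in the result was not tested. Exons of G630022F23Rik on the other strand overlap 13.9% of the exon bases of Fgfr3.

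Fgfr4, a receptor best known from developing muscle, was highest in S9-SCA-1+ cells. Its CPM were 11.2 and 12.6 there, 3.16, 3.90 and 2.47 in chondroblasts, 2.76, 3.80 and 2.97 in OCPs, 1.14, 1.01 and 0.697 in S9-Pαhi LMPs, and 0.300, 0.587 and 0.515 in S9-JAG1+ LMPs. Both S9-SCA-1+ libraries lay above, and all S9-JAG1+ libraries below, every other library, with a 25.5-fold ratio of the means. The S9-JAG1+ level rests on 7 to 14 reads a library. Fgfr4 rose by 3.02 in S9-SCA-1+ cells (SE 0.18, adjusted p = 1.00e-08) and fell by 2.79 in S9-JAG1+ LMPs (SE 0.25, adjusted p = 1.02e-06) and by 1.51 in S9-Pαhi LMPs (SE 0.23, adjusted p = 0.000447), the last of which ended without the S9-SCA-1+ libraries (-0.80, adjusted p = 0.053). Chondroblasts and OCPs had equal levels (log2 difference 0.01, SE 0.23, adjusted p = 0.981). The 10 myogenic markers shared its highest and lowest population but not the steps between, with all 10 above 3 reads and sums of 2040 and 2097 CPM in the S9-SCA-1+ libraries, 120 to 143 CPM in chondroblasts, 53.1 to 54.1 in OCPs, 38.6 to 61.8 in S9-Pαhi LMPs and 5.28 to 6.42 in S9-JAG1+ LMPs. Pax3, a defining marker of muscle progenitors, reached 428 and 498 CPM in the S9-SCA-1+ libraries and no more than 1.39 CPM in any other. Their part in Fgfr4 and Fgf9 was not tested.

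Levels of the receptors were compared per kilobase of the deposited gene length. Fgfr1 made up 94.2% ± 1.52 (SD, n = 3) of the summed receptor level in S9-JAG1+ LMPs, 86.8% ± 0.52 (n = 2) in S9-SCA-1+ cells, 82.6% ± 2.41 in S9-Pαhi LMPs, 80.4% ± 2.80 in OCPs and 72.7% ± 1.85 in chondroblasts (n = 3 each). Fgfr2 held 15.5% ± 2.25, 14.7% ± 1.63 and 18.1% ± 1.55 in S9-Pαhi LMPs, OCPs and chondroblasts, against 4.22% ± 1.43 in S9-JAG1+ LMPs and 4.42% ± 0.54 in S9-SCA-1+ cells. Fgfr3 reached 8.57% ± 0.81 in chondroblasts and 4.10% ± 1.17 in OCPs, and Fgfr4 6.56% ± 1.00 in S9-SCA-1+ cells with less than 1% in every other library. The summed level was 159 ± 16.9 CPM per kb in chondroblasts, 137 ± 9.05 in OCPs, 110 ± 11.0 in S9-Pαhi LMPs, 80.5 ± 1.39 in S9-JAG1+ LMPs and 58.0 ± 4.09 in S9-SCA-1+ cells. With the longest annotated transcript as the length, the Fgfr1 share was 69.8% in chondroblasts and 80.0% in S9-Pαhi LMPs.

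**Figure D3:**
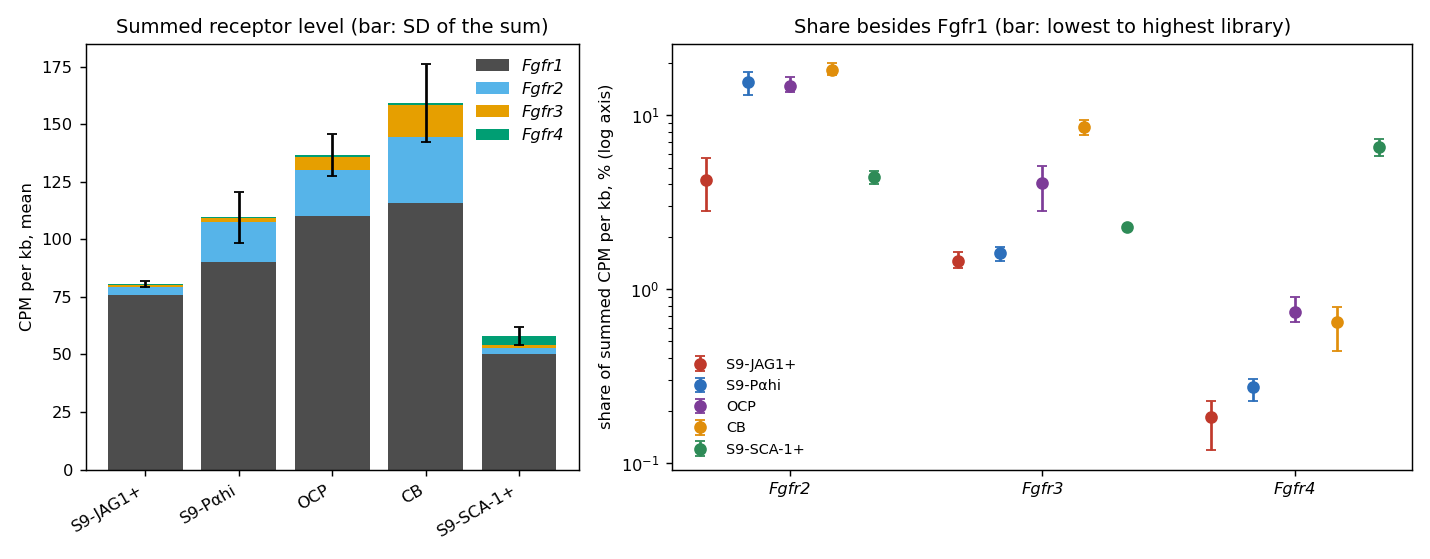
Left, summed level of the 4 receptors in CPM per kb (vertical axis from 0) with the mean of each receptor stacked and a bar for the SD of the sum. Right, share of Fgfr2, Fgfr3 and Fgfr4 in that sum (percent, log axis) with the mean as a point and a bar from the lowest to the highest library: Fgfr4 reaches 6.56% in the S9-SCA-1+ cells and Fgfr3 8.57% in the chondroblasts (CB).

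In pairs of populations, the calls among the 9 tested FGF genes stood beside those over all tested genes as follows. OCPs against S9-JAG1+ LMPs gave 6 calls (12.5% of all tested genes), with Fgf9, Fgfr2, Fgfr3 and Fgfr4 higher and Fgf10 and Fgf2 lower in OCPs. Chondroblasts against S9-JAG1+ LMPs gave 6, all higher (19.4%), and chondroblasts against S9-Pαhi LMPs 5, all higher (12.7%). OCPs against S9-Pαhi LMPs gave 4 (4.84%), namely Fgf9, Fgfr3 and Fgfr4 higher and Fgf2 lower. Chondroblasts against OCPs gave 4, all higher (7.77%): Fgf18, Fgf2, Fgf8 and Fgfr3. The S9-SCA-1+ cells gave 5 calls against S9-JAG1+ LMPs (11.4%), 6 against S9-Pαhi LMPs (10.54%), 5 against OCPs (12.8%) and 8 against chondroblasts (19.4%). Fgf10 and Fgfr4 were among them in all 4 pairs, Fgf10 lower and Fgfr4 higher in the S9-SCA-1+ cells. The call of Fgf8 against S9-JAG1+ LMPs ended without replicate 2 of these LMPs (1.72, adjusted p = 0.105). It also ended without replicate 3 of the S9-SCA-1+ cells (1.86), as did the call of Fgf2 against S9-Pαhi LMPs (-1.64).

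The pathway lists are read against the same shares of all tested genes as above, 10.6% called in S9-JAG1+ LMPs, 3.84% in S9-Pαhi LMPs, 5.01% in OCPs, 12.7% in chondroblasts and 11.3% in S9-SCA-1+ cells. Of 16 other FGF ligands, 7 passed the filter on low counts, and the calls are counted over these. In chondroblasts 5 were higher and 1 lower than the mean of the other populations, in OCPs 2 were higher, in S9-JAG1+ LMPs 1 was higher and 2 lower, in S9-SCA-1+ cells 1 was higher and 2 lower, and in S9-Pαhi LMPs none was called. Fgf7, the epithelial growth factor made by mesenchyme, rose in chondroblasts by 2.39 (SE 0.27, adjusted p = 4.88e-06) and in OCPs by 1.37 (SE 0.29, adjusted p = 0.00412). Fgf12, an intracellular family member, rose by 1.88 in chondroblasts (SE 0.19, adjusted p = 2.15e-06) and 1.69 in OCPs (SE 0.20, adjusted p = 3.40e-05). Fgf5 had 201 and 175 reads in the S9-SCA-1+ libraries and 0 to 21 in the others, a log2 fold change of 4.40 (SE 0.31, adjusted p = 6.57e-08). Fgf1 had 0 reads in both S9-SCA-1+ libraries and at most 12 in any library, and no fold change is given for it. The counts above nevertheless include it: it was the only ligand called higher in S9-JAG1+ LMPs. It was also among those higher in chondroblasts and those lower in S9-SCA-1+ cells.

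Among 18 listed coreceptors and binding proteins, 17 were in the count table and 15 were tested. Chondroblasts had 4 higher and none lower, with a median of 0.41 over the 15 beside 0.05 over all tested genes. Gpc4, a heparan sulfate proteoglycan, rose by 2.02 in chondroblasts (SE 0.11, adjusted p = 4.15e-09) and fell by 1.78 in S9-JAG1+ LMPs (SE 0.14, adjusted p = 2.57e-07) and by 1.44 in S9-SCA-1+ cells (SE 0.16, adjusted p = 6.72e-06). Flrt2, a transmembrane protein that binds FGF receptors, rose by 2.05 in chondroblasts (SE 0.09, adjusted p = 9.37e-10) and fell by 1.47 in S9-JAG1+ LMPs (SE 0.11, adjusted p = 1.63e-07). In S9-JAG1+ LMPs 3 were lower and none higher, in S9-SCA-1+ cells 3 lower and 1 higher (Sdc4, 1.43, SE 0.13, adjusted p = 7.86e-07), and in OCPs and S9-Pαhi LMPs none was called.

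The 24 genes of intracellular transduction, all tested, gave a single call among the 5 populations. It was Pik3r1, a regulatory subunit of PI3 kinase, higher by 1.51 in S9-SCA-1+ cells (SE 0.08, adjusted p = 2.09e-09). Their medians lay between -0.07 and 0.09 in the 5 comparisons.

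Of the 14 feedback inhibitors, all tested, 4 were higher and none lower in S9-JAG1+ LMPs, and the median was 0.64 beside -0.01 over all tested genes. Spry4 rose by 2.68 (SE 0.13, adjusted p = 1.47e-09), Spry1 by 2.19 (SE 0.11, adjusted p = 3.81e-09), the phosphatase gene Dusp6 by 1.58 (SE 0.12, adjusted p = 1.43e-07) and Il17rd, which encodes the membrane inhibitor SEF, by 1.45 (SE 0.07, adjusted p = 2.02e-09). Spry4 stood at 164, 145 and 165 CPM in S9-JAG1+ LMPs, 36.5, 36.1 and 62.1 in S9-Pαhi LMPs, 15.6, 14.6 and 14.8 in OCPs, 35.9, 32.9 and 24.6 in chondroblasts, and 18.4 and 17.3 in S9-SCA-1+ cells. Spry2 did not pass the fold limit in S9-JAG1+ LMPs (0.76, SE 0.11, adjusted p = 6.37e-05). The study had picked Sprouty genes and Dusp6 on these same samples, so the count is not independent evidence of its direction. In S9-SCA-1+ cells Spry1, Dusp6 and Spry4 fell by 2.27, 1.25 and 1.25 (adjusted p = 2.90e-07, 3.76e-05 and 0.000127), whereas Dusp4 rose by 2.37 (SE 0.12, adjusted p = 1.70e-09). In chondroblasts 2 were lower than the mean of the others (Dusp4 by 1.70 and Dusp9 by 1.49). Chondroblasts against OCPs gave no call in this list (7.77% of all tested genes). Against S9-Pαhi LMPs 1 was higher and 1 lower (12.7%), and against S9-JAG1+ LMPs 2 were higher and 6 lower (19.4%). In OCPs Spry4 alone was called, lower by 1.57 (SE 0.16, adjusted p = 1.10e-05), and in S9-Pαhi LMPs none was called.

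Of the 15 transcriptional targets, all tested, 7 were called in S9-JAG1+ LMPs, 3 higher and 4 lower. Etv4, an ETS factor induced by FGF signalling, rose by 1.68 in S9-JAG1+ LMPs (SE 0.11, adjusted p = 6.14e-08) and fell by 1.79 in OCPs (SE 0.14, adjusted p = 1.05e-06). Cdx2, a caudal homeobox gene that also serves as a target in the posterior axis, was at 1.24, 1.68 and 3.81 CPM in S9-JAG1+ LMPs and at most 0.113 CPM elsewhere, highest in the library that carried Fgf4. The immediate early genes Egr1 and Egr2, which many stimuli induce, fell in S9-JAG1+ LMPs by 2.53 (SE 0.53, adjusted p = 0.00168) and 2.96 (SE 0.76, adjusted p = 0.00616). In chondroblasts 3 were higher and 3 lower. Egr2 and Egr1 were among the higher, by 1.98 (SE 0.50, adjusted p = 0.00363) and 1.52 (SE 0.41, adjusted p = 0.00529). Among the lower were Mycn, by 1.72 (SE 0.14, adjusted p = 3.14e-07), and Lin28b, by 1.66 (SE 0.12, adjusted p = 5.57e-08). In S9-SCA-1+ cells Myc rose by 3.19 (SE 0.18, adjusted p = 5.54e-09) and Fos fell (adjusted p = 0.0202), in OCPs Etv4 alone was called, and in S9-Pαhi LMPs none was.

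**Figure D4:**
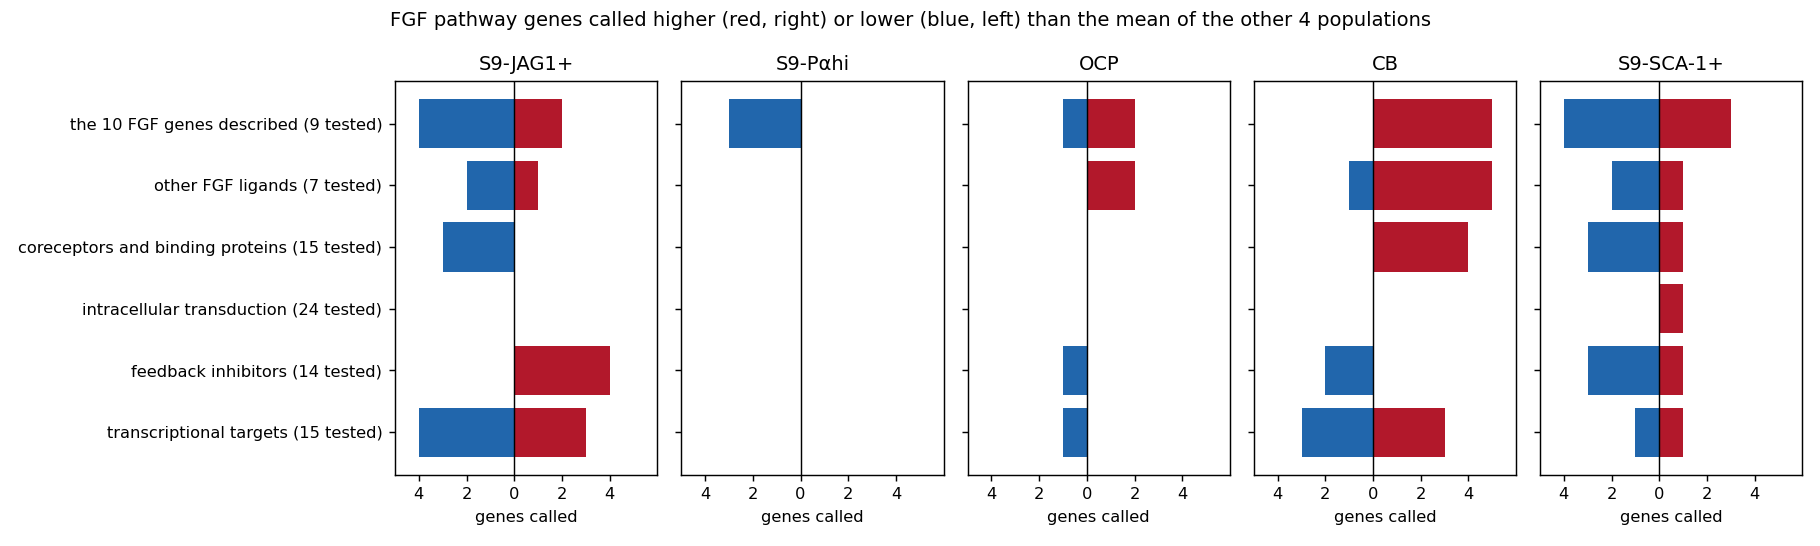
Number of genes called higher (right, red) or lower (left, blue) in each population than in the mean of the other 4, for the 10 FGF genes described and 5 lists of pathway genes, with the number tested beside each name. The feedback inhibitors have 4 calls to the right in the S9-JAG1+ LMPs, the transduction genes a single call in the S9-SCA-1+ cells, and the S9-Pαhi LMPs have calls only among the FGF genes described.

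The patterns of single genes over the 14 libraries were set side by side as Pearson correlations of log2 CPM, which describe libraries that share populations, stage and scaling. Fgfr4 and Fgf9 went together (r = 0.94) and Fgfr4 ran against Fgf10 (r = -0.91), whereas Fgf10 and Fgf18 showed little relation (r = 0.21). Fgfr1 and Fgfr2 had r = 0.89 and Fgfr2 and Fgfr3 0.82. Over genes that averaged 5 CPM or more, those most like Fgf10 were Cyp26b1 (r = 0.98), Ets2 (0.98) and Slit3 (0.97), and those most like Fgfr2 were Samd4 (0.99), Mme (0.98) and Tgfbr3 (0.98). Fgfr3 was nearest to Ccdc80 (0.99), Bmper (0.99) and Iqsec1 (0.99), Fgfr1 to Fbln2 (0.98), Lrrc56 (0.98) and Rftn2 (0.98), and Fgf18 to Thra (0.96), Slc30a4 (0.96) and B3galnt1 (0.95). Fgfr4 was nearest to Mn1 (0.96), Dmrt2 (0.96) and Foxd2 (0.96), and Fgf9 to Slc12a2 (0.97), Myo5b (0.97) and, again, Dmrt2 (0.97), a gene of the dermomyotome. The genes nearest to the rare ligands had lower values, namely Ptpn9 (0.94), Sp1 (0.94) and Prkce (0.93) for Fgf2 and Elf4 (0.90), Cpt1a (0.89) and Lrrk2 (0.89) for Fgf8. With Spearman correlations 3 of these 27 genes were again among the nearest, and with a prior count of 0.5 in place of 2, 24 of 27.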

How the data were processed

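RNA was sequenced from 14 libraries of 5 sorted populations, and populations and replicate numbers were taken from the sample titles. The authors aligned single-end reads to mm10 with STAR, kept 1 hit of multiply mapping reads, counted reads that start in exons of RefSeq mRNAs with QuasR and deposited raw counts with a length per gene. Use of strand in counting is not given in the sources used here. The labels call the libraries replicates of pooled embryos, so p-values measure the spread between these pools. From 20316583 to 29162751 reads were counted per library. At this depth 3 counts correspond to 0.101 to 0.149 CPM, and such floors cover counting error only.

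Counts were analysed in R 4.3.3 with edgeR 4.0.16 (filterByExpr by population, TMM, quasi-likelihood fit of the 5 population means to all 14 libraries, biological coefficient of variation 13.4%). Of 24454 genes 15125 were tested in 16 comparisons, the joint test, each population against the mean of the other 4, and 10 pairs. All adjusted p values are from edgeR's quasi-likelihood F test with Benjamini-Hochberg adjustment over these genes, and genes were called at 0.1 with a log2 fold change limit of 1.2. Levels are CPM without a prior count. Receptor shares used CPM per kilobase of the deposited length, and correlations used log2 CPM with a prior count of 2.

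All 10 members were named, with the 3 genes most alike for each that was tested. For each pathway list and population against the mean of the other 4, up to 4 called genes with the largest fold change were eligible. Not all of these are named in the text. Among those left out were Kl (log2 fold change 2.60) and Fgf11 (2.35) in chondroblasts and Sdc2 (-1.52) in S9-SCA-1+ cells. Spry2 and the ligand and presomitic genes set beside Fgf4 were named after their values were seen. The members and lists were chosen with earlier results of these data known. Replicates were compared by chi-square over genes (7.86 to 77.5 per degree of freedom), so no library was counted as a repeat of another. Alternatives were DESeq2 1.42.0, the likelihood ratio test, other scalings, filters and limits, a replicate block, fits without libraries or populations and another gene length. The fitting code was tested on simulated data. Exon overlaps came from GENCODE M21, gene coordinates from RefSeq and promoters from RefSeq (GRCm38.p6). A comparison of protein sequences was planned and not run.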

Additional observations from a re-analysis of the deposited data

How the results depend on the processing

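No called fold change of the 9 tested FGF genes changed sign in the 16 comparisons, whereas 15 of 144 pairs of gene and comparison, none of them called, did so under at least 1 alternative. On library totals, for example, Fgf10 in chondroblasts against S9-Pαhi LMPs was 0.09 on the log2 scale instead of -0.02. Of 83 calls among the 144 pairs, 13 ended when at least 1 of the 14 libraries was left out, and the counts of called genes then ranged from 8 to 9 in the joint test, 6 to 7 in S9-JAG1+ LMPs, 2 to 3 in S9-Pαhi LMPs, 2 to 4 in OCPs, 4 to 5 in chondroblasts and 6 to 7 in S9-SCA-1+ cells, and from 1 to 2 in S9-Pαhi against S9-JAG1+ LMPs, where the main count was 1. The 7th gene in S9-JAG1+ LMPs was Fgf4, which passed the filter when replicate 2 or 3 of the S9-SCA-1+ cells was left out and rests on 17 reads in 1 library. Without a limit on the fold change, 6 genes instead of 3 passed in S9-Pαhi LMPs, 8 instead of 3 in OCPs, 9 instead of 5 in chondroblasts and 6 instead of 1 in S9-Pαhi against S9-JAG1+ LMPs, which follows from the looser rule. The likelihood ratio test and a filter at 1 CPM in 2 libraries changed no call, while DESeq2 and median-of-ratios size factors ended 2 each, both of Fgfr1.

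Deviations from the population means were correlated between libraries of different populations to look for pairing by replicate number. Over 26 pairs with the same number the correlation ran from -0.18 to 0.31, with 4 over 0.1. Over 52 pairs with other numbers it ran from -0.31 to 0.41, with 6 over 0.1. With 2 or 3 libraries a population, such correlations cannot exclude that samples were paired. The fit with a replicate block ended 1 call, Fgf8 in OCPs (log2 fold change -1.55, adjusted p = 0.109 by edgeR's quasi-likelihood test), which left 2 genes called in OCPs instead of 3.

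Scaling by library totals moved 4 of 50 mean levels, and median-of-ratios size factors 1 of 50, by more than the spread between replicates. Gene length set the receptor shares: with the longest annotated transcript, 8 of 20 shares moved by more than that spread. Depth limits Fgf2, Fgf4 and Fgf8, at 0 to 111 reads a library. It also limits Fgf9 and Fgfr4 in the 2 LMP populations, at 9 to 28 and 7 to 28 reads a library. With 2 or 3 libraries a population, single libraries were not tested as outliers. Splice forms, reads from overlapping genes, and stage against cell type for the chondroblasts cannot be resolved here.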
